A study of Canis lupus familiaris with 6 samples.

Results

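The genes described here encode 10 enzymes that make serine, pass its carbon to folate or build asparagine: PHGDH, PSAT1, PSPH, SHMT1, SHMT2, MTHFD1, MTHFD1L, MTHFD2, ALDH1L2 and ASNS. They were taken by gene symbol from the 35993 genes of the deposited table, and all 10 were found and passed the filter on low counts. The set was chosen by pathway, with the counts of these same libraries and earlier results of the comparison between plasma and gas already known, and no threshold on a value was applied. The differences between the groups are therefore given as a description and support no statement.

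The RNA-Seq libraries came from CPEK cells, an epidermal keratinocyte line of the dog with the genotype given as WT. The cells of 3 libraries, the dCAMP group, received cold atmospheric microwave plasma (CAMP, an ionized gas at low temperature) directly for 30 s. The cells of the other 3 libraries received the gas without plasma for 30 s. In both groups the medium was exchanged 15 min later, and RNA was taken 24 h after that. A single cell line was used, and no label ties a library to a separate experiment, so the error given measures the spread between these libraries, which may be technical.

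Serine is made from a glycolytic intermediate in 3 steps. PHGDH oxidizes 3-phosphoglycerate, PSAT1 transfers an amino group from glutamate, and PSPH removes the phosphate. The serine hydroxymethyltransferases, SHMT1 in the cytosol and SHMT2 in mitochondria, split serine into glycine and a one-carbon unit carried by tetrahydrofolate. In mitochondria, MTHFD2 oxidizes this unit and MTHFD1L releases it as formate. ALDH1L2 oxidizes the unit further to carbon dioxide while making NADPH, and MTHFD1 recovers formate in the cytosol for purine and thymidylate synthesis. ASNS makes asparagine from aspartate and glutamine. Several of these genes, ASNS, PHGDH, PSAT1, SHMT2, MTHFD2 and ALDH1L2 among them, are textbook targets of ATF4, the transcription factor of the amino acid and integrated stress responses. Keratinocytes that divide draw on the pathway for nucleotides.

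The libraries held 43084921 to 54082634 counts assigned to genes, and a single count of an enzyme gene lay between 554 and 28402. The gas libraries differed more among themselves than the dCAMP libraries: the median coefficient of variation over the 14708 genes tested was 16.6% under gas and 5.89% under dCAMP. The genes in the top quartile of transcript length had a median log2 deviation from the mean of all libraries that was −0.21 for gas 1, −0.09 for gas 2 and 0.08 for gas 3, against 0.08 to 0.12 under dCAMP. Of 9 keratinocyte markers, 8 were tested, with a summed level of 48540 to 58735 CPM under gas, against 45707 to 48742 CPM under dCAMP, and KRT1, a keratin of differentiated layers, was at 0. IVL and KRT10, other differentiation markers of the list, were not at 0. IVL had 637 to 1439 CPM under gas, against 856 to 1206 CPM under dCAMP, and KRT10 had 21.4 to 34.3 CPM, against 30.0 to 31.5 CPM. KRT5 and KRT14, keratins of basal cells, made up most of the summed level. DSG3, a desmosomal cadherin, lay the other way without overlap, at 525, 629 and 795 CPM under gas, against 921, 924 and 952 CPM under dCAMP. CPM denotes counts scaled to the TMM-normalized library size. Markers of other cell types summed to at most 1.98 CPM for fibroblasts, 0.843 CPM for melanocytes and 1.77 CPM for leukocytes, with PDGFRB, DCN, LUM, TYR, DCT, PTPRC and CD3E at 0. The endothelial markers summed to 11.8 to 14.7 CPM under gas, against 14.1 to 19.3 CPM under dCAMP, mostly VWF, while PECAM1 was at 0. The part of these differences between libraries in the values below was not tested, except where a value without a library or without the length trend is given.

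SHMT2, the mitochondrial serine hydroxymethyltransferase, had the widest difference between the groups among the 10 genes. Its level was 363, 288 and 266 CPM in gas libraries 1, 2 and 3 and 176, 178 and 180.3 CPM in dCAMP libraries 1, 2 and 3. All dCAMP libraries lay below all gas libraries, and the dCAMP values were nearly the same while the gas values spread. The means were 306 ± 50.8 CPM (SD, n = 3) under gas and 178 ± 2.03 CPM (SD, n = 3) under dCAMP, or −0.78 as log2 fold change (standard error, SE, 0.13), which is 41.7% lower. In bulk RNA, fewer cells with a transcript and less of it per cell cannot be told apart. SHMT2 (gene ID 607458) lies on chromosome 10, 1357347 to 1362511 of CanFam3.1, and has 1 transcript of 2179 bases in the table. Its locus overlaps by 33 bases that of NDUFA4L2, which had 0 to 9 counts a library, and by 1117 bases that of the lncRNA LOC102156850, which had 0 counts in every library.

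SHMT1, the cytosolic enzyme for the same reaction (gene ID 489536, at 41221531 to 41248653 on chromosome 5 of CanFam3.1), measured 80.9, 70.6 and 63.6 CPM under gas, against 63.5, 61.5 and 63.2 CPM under dCAMP. On CPM the groups did not overlap, but gas 3 lay only just above dCAMP 1. On FPKM they overlapped, with 28.94 in gas 3 against 29.06 in dCAMP 1. The log2 fold change was −0.19 (SE 0.11). The level of SHMT2 as a share of both genes, which needs values per transcript length and was taken from FPKM, was 79.7%, 78.1% and 78.6% under gas and 70.8%, 71.7% and 71.4% under dCAMP. The mean share was 78.8 ± 0.824% under gas and 71.3 ± 0.432% under dCAMP (SD, n = 3), a difference of −7.49 percentage points, and the groups did not overlap.

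**Figure D1:**
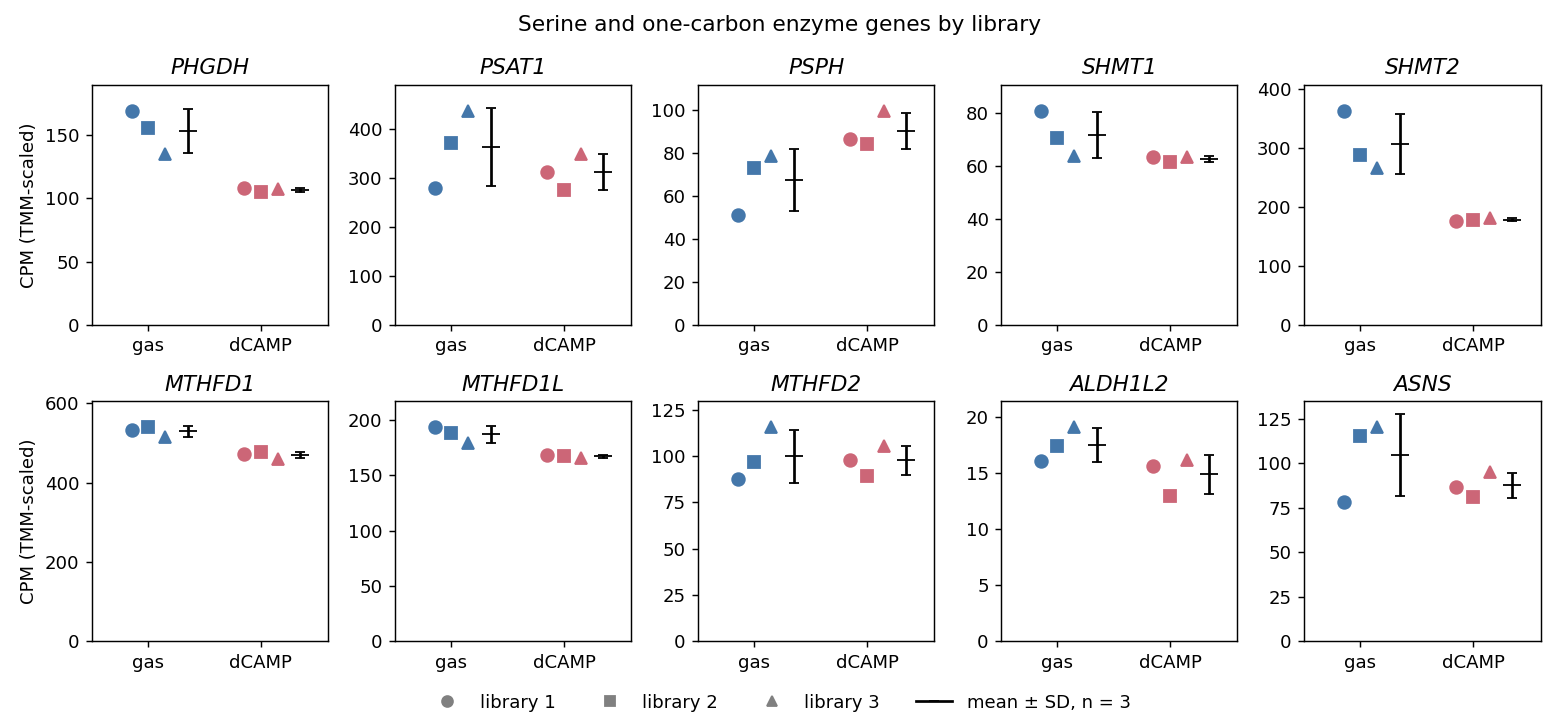
Level of each enzyme gene in CPM (y axes, each from 0) in the 3 gas libraries (blue) and the 3 dCAMP libraries (red), with the marker shape giving the library number and the bar the mean ± SD (n = 3). SHMT2, PHGDH, SHMT1, MTHFD1 and MTHFD1L have all dCAMP points below all gas points, PSPH has them above, and the points of PSAT1, MTHFD2, ALDH1L2 and ASNS overlap.

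PHGDH, the first and committed enzyme of serine synthesis (gene ID 100856197, at 56651425 to 56676776 on chromosome 17 of CanFam3.1), measured 169, 155 and 135 CPM under gas, against 108, 105 and 107 CPM under dCAMP. The groups did not overlap, and gas 1 was again the highest library. The means were 153 ± 17.1 CPM (SD, n = 3) under gas and 107 ± 1.67 CPM (SD, n = 3) under dCAMP, or −0.52 as log2 fold change (SE 0.10), which is 30.4% lower.

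The table holds 2 further loci described as D-3-phosphoglycerate dehydrogenase on the same chromosome of CanFam3.1, LOC607890 (56806912 to 56833765) and LOC608055 (57385063 to 57410439). In the reference gene table of the newer assembly UU_Cfam_GSD_1.0, the symbol PHGDH belongs to 1 gene, and that gene has the identifier that CanFam3.1 gives to LOC607890. PHGDH took 32.4% to 33.2% of the counts of the 3 loci in the 6 libraries (95% Wilson intervals within 31.6% to 33.9%), LOC607890 44.1% to 45.4% (within 43.3% to 46.2%) and LOC608055 22.1% to 22.7% (within 21.5% to 23.4%). These intervals cover counting error only. The shares were nearly constant between libraries. Counting can split the reads of near-identical copies, so the value of any one of these loci is uncertain. Summed over the 3 loci, a sum chosen after seeing the data, the level was 513, 471 and 411 CPM under gas, against 326, 320.3 and 331 CPM under dCAMP. The log2 fold change of the sum was −0.51 (SE 0.10), close to that of PHGDH alone, and the groups did not overlap.

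**Figure D2:**
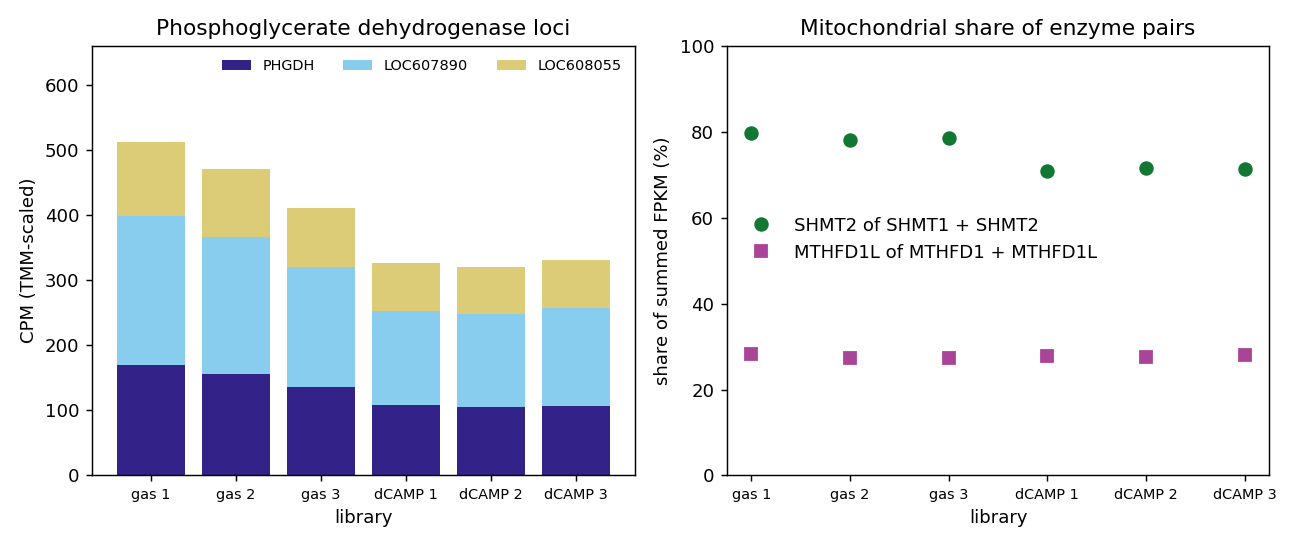
Left, CPM of the 3 loci described as phosphoglycerate dehydrogenase, stacked, in each library: the sum is 411 to 513 under gas and 320.3 to 331 under dCAMP, with the loci in the same proportions throughout. Right, the mitochondrial enzyme as a share of summed FPKM (%) for the pairs SHMT2 with SHMT1 and MTHFD1L with MTHFD1: the first is 78.1% to 79.7% in gas and 70.8% to 71.7% in dCAMP, and the second is 27.3% to 28.2% in all 6 libraries.

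PSAT1, the second enzyme of serine synthesis (gene ID 476318, at 80376469 to 80408177 on chromosome 1 of CanFam3.1), measured 278, 371 and 437 CPM under gas, against 312, 276 and 347 CPM under dCAMP. Gas 1 lay just above the lowest dCAMP library while gas 2 and gas 3 lay above all of them, so the groups overlapped. The log2 fold change was −0.22 (SE 0.18), −0.39 without gas 1 and −0.10 without gas 3.

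PSPH, the last enzyme of serine synthesis (gene ID 489783, at 493152 to 546176 on chromosome 6 of CanFam3.1), was the gene with the higher level under dCAMP. It had 51.1, 73.0 and 78.8 CPM under gas, against 86.8, 84.2 and 99.9 CPM under dCAMP. All dCAMP libraries lay above all gas libraries, with a narrow distance to gas 3 and a wide one to gas 1. The log2 fold change was 0.42 (SE 0.18), 0.23 without gas 1 and 0.50 without gas 3. PHGDH was 22.3% to 36.0% of the summed FPKM of the 3 serine synthesis genes under gas and 20.1% to 23.2% under dCAMP, and these ranges overlapped. This share counts the PHGDH locus only and leaves out the other loci of the same description, so it understates their joint part.

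MTHFD1, the cytosolic enzyme with 3 activities on folate (gene ID 480352, at 38831672 to 38889607 on chromosome 8 of CanFam3.1), measured 532, 539 and 514 CPM under gas, against 471, 477 and 460.4 CPM under dCAMP. The groups did not overlap, and the spread within each was small. The log2 fold change was −0.17 (SE 0.07). MTHFD1L, the mitochondrial formate-producing enzyme (gene ID 476245, at 41316247 to 41495226 on chromosome 1 of CanFam3.1), measured 194, 189 and 179 CPM under gas, against 169, 168 and 165 CPM under dCAMP, or −0.16 as log2 fold change (SE 0.07). Here too every dCAMP library lay below every gas library. The lncRNA LOC111095761, which lies within the MTHFD1L locus, had 0 counts in every library. As a share of the summed FPKM of both, MTHFD1L was 27.7 ± 0.490% under gas and 27.8 ± 0.222% under dCAMP (SD, n = 3), with overlapping libraries.

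MTHFD2, the mitochondrial dehydrogenase and cyclohydrolase (gene ID 483107, at 48882838 to 48896816 on chromosome 17 of CanFam3.1), measured 87.3, 96.6 and 116 CPM under gas, against 98.0, 89.4 and 105 CPM under dCAMP. The groups overlapped, and the log2 fold change of −0.03 (SE 0.13) was 0.04 without gas 3 and −0.14 without gas 1. ALDH1L2, the mitochondrial 10-formyltetrahydrofolate dehydrogenase (gene ID 474534, at 33310523 to 33365677 on chromosome 10 of CanFam3.1), measured 16.0, 17.4 and 19.1 CPM under gas, against 15.6, 12.9 and 16.1 CPM under dCAMP. On CPM, gas 1 lay within the range of the dCAMP libraries, and the log2 fold change was −0.23 (SE 0.13). On FPKM, gas 1 lay just above that range, at 4.05 against 3.98 in dCAMP 3. Over the 6 folate enzymes together, the 4 mitochondrial genes held 56.4 ± 1.32% of the summed FPKM under gas and 51.7 ± 0.878% under dCAMP (SD, n = 3), with no overlap. With SHMT2 left out of both sums, a share added after seeing the data, the other 3 mitochondrial genes held 36.3 ± 1.87% under gas and 37.3 ± 1.13% under dCAMP (SD, n = 3), and the libraries overlapped.

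ASNS, the asparagine synthetase (gene ID 475240, at 22718020 to 22734109 on chromosome 14 of CanFam3.1), measured 78.6, 115 and 120.4 CPM under gas, against 86.6, 81.4 and 95.4 CPM under dCAMP. Gas 2 and gas 3 lay above every dCAMP library and gas 1 below every one. The log2 fold change was −0.26 (SE 0.18), −0.44 without gas 1 and −0.19 without gas 3.

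The order by level per transcript length counts PHGDH at its own locus only. MTHFD1 and PSAT1 stood highest, with a mean of 137 FPKM each under gas, and ALDH1L2 lowest, at 4.33 ± 0.303 FPKM (SD, n = 3). In the gas control, the order of the means was MTHFD1, PSAT1, SHMT2, PHGDH, MTHFD1L, ASNS, PSPH, MTHFD2, SHMT1 and ALDH1L2. Neighbours in this order overlapped in their libraries, apart from SHMT2 above PHGDH, PHGDH above MTHFD1L and SHMT1 above ALDH1L2. The order under dCAMP was MTHFD1, PSAT1, SHMT2, PSPH, PHGDH, MTHFD1L, MTHFD2, ASNS, SHMT1 and ALDH1L2, so PSPH went from rank 7 to rank 4 and ASNS from rank 6 to rank 8. MTHFD1 with PSAT1 and MTHFD2 with ASNS were the neighbours that overlapped there. The FPKM of PHGDH is that of its own locus, without the other copies.

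Of the 10 genes, 9 had a fitted level lower under dCAMP, as had 47.6% of all genes tested. On the scale of CPM, 5 of the 10 lay lower in every dCAMP library than in every gas library, where 20.9% of all genes tested did. On the same scale, 1 lay higher in every dCAMP library, where 19% of all genes did. The median log2 fold change of the 10 genes was −0.20, and that of all genes tested 0.03. With the quasi-likelihood test of edgeR, Benjamini-Hochberg adjusted over all genes, 0 of the 10 had an adjusted p under 0.05, as for 0% of all genes, and the adjusted p ran from 0.221 to 0.876. An unadjusted p under 0.05 was found for 3 of them (SHMT2, PHGDH and MTHFD1), against 20.7% of all genes. The call that joins an unadjusted p under 0.05 to a change of at least 2-fold was met by 0 of the 10 and by 1.09% of all genes. These counts describe genes that were put forward with this comparison known, and nothing is read from them.

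The counts depended on gas 3. Without it, edgeR called SHMT2, PHGDH, MTHFD1 and MTHFD1L at an adjusted p under 0.05, all 4 lower under dCAMP, while it called 33.1% of all genes, 18.1% as lower. DESeq2, the tool of the study, called 2 of the 10, SHMT2 (adjusted p = 0.00236) and PHGDH (adjusted p = 0.015). It called 2.59% of the 11627 genes to which it gave an adjusted p. With voom and sample quality weights, 8 of the 10 were called, and 60.8% of all genes. The weights were 0.115 for gas 1, 6.73 for gas 2 and 0.192 for gas 3, against 1.40 to 2.20 under dCAMP. The gas level in that fit thus rested mostly on gas 2. With each library left out in turn, the log2 fold change of SHMT2 was −0.92 to −0.66 and that of PHGDH −0.65 to −0.46, and that of SHMT1 was −0.32 without gas 3 and −0.12 without gas 1. When each library's trend on transcript length was removed, SHMT2 stayed at −0.79 and PHGDH at −0.50, while the 3 genes with the longest transcripts moved away from 0: MTHFD1 to −0.29, MTHFD1L to −0.26 and ALDH1L2 to −0.36.

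**Figure D3:**
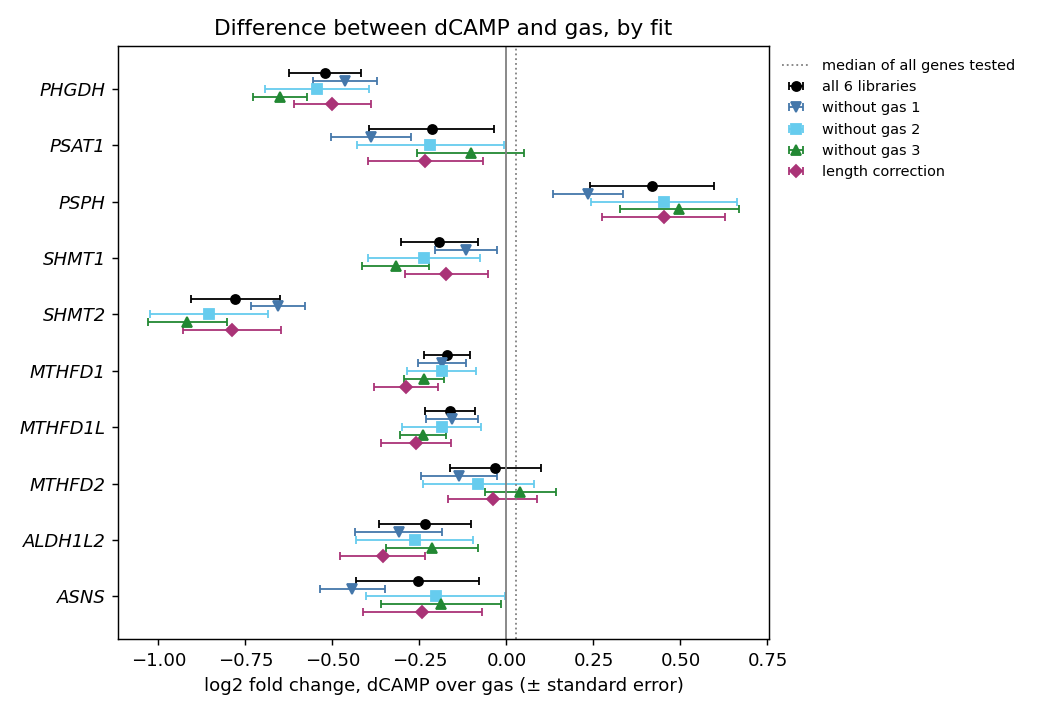
Log2 fold change of dCAMP over gas (x axis, ± SE) of each enzyme gene with all 6 libraries, without each gas library, and with the length trend removed; the dotted line is the median of all genes tested, 0.03. SHMT2 and PHGDH lie left of 0 and PSPH right of 0 in each of these fits, and MTHFD2 crosses 0.

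Across the libraries the genes followed 2 patterns, which were seen in the data and are a description. SHMT2, PHGDH, SHMT1 and MTHFD1L were highest in gas 1 and lowest, among the gas libraries, in gas 3, with differences of 0.45, 0.32, 0.35 and 0.11 on the log2 scale between these libraries. MTHFD1 varied least among the gas libraries, with its highest gas value in gas 2. PSAT1, PSPH, ASNS, MTHFD2 and ALDH1L2 had the opposite order, with gas 3 above gas 1 by 0.65, 0.62, 0.62, 0.40 and 0.25 on the log2 scale. The same 5 genes were also ordered alike among the dCAMP libraries, where each was lowest in dCAMP 2 and highest in dCAMP 3. How many of all genes had these orders was not computed. Pearson's correlation of log2 CPM over the 6 libraries was 0.74 to 0.99 among PHGDH, SHMT1, SHMT2, MTHFD1 and MTHFD1L, 0.70 to 0.96 among PSAT1, MTHFD2, ALDH1L2 and ASNS, and −0.50 to 0.53 between these sets. PSPH correlated at −0.93 to −0.80 with the first set and at −0.15 to 0.52 with the second. The points share their libraries, and the difference between the groups is part of each coefficient.

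**Figure D4:**
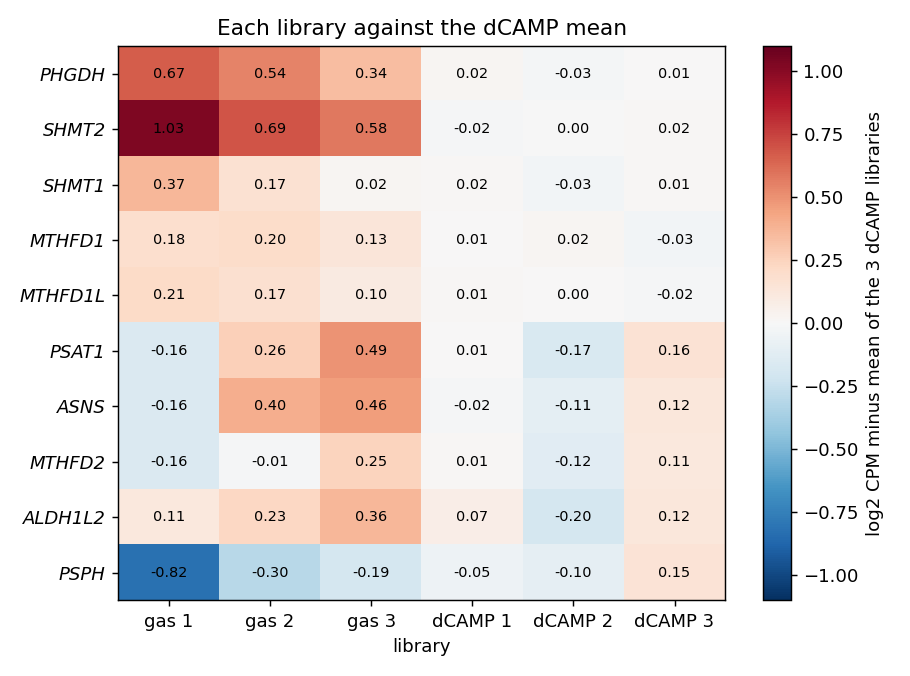
Log2 CPM of each enzyme gene (rows) in each library (columns) minus its mean over the 3 dCAMP libraries, with colour and printed value giving the same quantity. The upper 5 genes are positive in all gas libraries (SHMT2 1.03, 0.69 and 0.58), whereas PSAT1, ASNS and MTHFD2 are negative in gas 1 and positive in gas 3.

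By the deposited transcript table, SHMT2, PHGDH, MTHFD1L, MTHFD2 and ALDH1L2 had 1 transcript each. In PSAT1, MTHFD1, SHMT1 and ASNS a single transcript held most of the counts in every library: variant X1 of ASNS, for example, held 93.6% to 99.7%. PSPH had 10 transcripts, and its most abundant, variant X6, held 32.7% to 44.7% of the counts under gas and 43.3% to 44.9% under dCAMP. Variant X3 held 14.5%, 24.1% and 15.8% under gas and 10.2%, 11.7% and 12.8% under dCAMP (95% Wilson intervals within 13.2% to 25.5% and 9.29% to 13.8%). Variant X5 held 3.68%, 1.74% and 2.30% under gas and 4.95%, 6.81% and 7.35% under dCAMP (intervals within 1.38% to 4.52% and 4.32% to 8.15%). X3, X2 and X10 were lower and X5 higher in every dCAMP library, 4 of the 17 transcripts of the 5 genes that held at least 1% on average, against 10.5% of such transcripts over all genes (5.3% lower and 5.18% higher). The smallest p that an exact two-sided permutation test of 3 against 3 libraries can give is 0.1, and no test of a share was run. Counts per transcript are estimates that divide reads between overlapping models.

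The neighbouring genes of the pathway were read from 6 lists, and 49 of their 57 genes were tested. Of these, 0 had an adjusted p under 0.05 in edgeR, 13 had an unadjusted p under 0.05 with a lower level under dCAMP (13.9% of all genes did) and 3 with a higher one (6.81% of all genes did). DESeq2 called 4 of them at an adjusted p under 0.05, beside 2.59% of the 11627 genes to which it gave an adjusted p. The edgeR fit without gas 3 called 24, beside 33.1% of all genes. The values below are therefore levels, and none of these genes is called changed.

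Among genes that use serine and glycine, 9 of 12 were tested, 4 with a lower and 5 with a higher fitted level, and the median log2 fold change was 0.35, or 0.18 without gas 1 and 0.21 with the length correction. CBS, which joins serine to homocysteine, had 226, 208 and 170.4 CPM under gas, against 161, 158 and 153 CPM under dCAMP (log2 fold change −0.36, SE 0.12). CTH, the next enzyme of that route to cysteine, had a log2 fold change of −0.11, and AMT of the glycine cleavage system −0.21. SPTLC1 and SPTLC2, the subunits of serine palmitoyltransferase at the start of sphingolipid synthesis, had log2 fold changes of 0.35 (SE 0.13) and 0.44 (SE 0.17), and their groups did not overlap. DLD, the dihydrolipoamide dehydrogenase shared by the glycine cleavage system, stood at a log2 fold change of 0.43 (SE 0.23) with 63.7 CPM in gas 1 against 97.7 and 124 CPM in gas 2 and gas 3, and the groups overlapped.

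In the folate cycle, 12 of 14 genes were tested, with 6 lower and 6 higher. SLC19A1, the reduced folate carrier, had 65.3, 57.5 and 50.9 CPM under gas, against 35.7, 41.3 and 38.5 CPM under dCAMP (log2 fold change −0.59, SE 0.13), and the groups did not overlap. FPGS, which retains folates in the cell, was at −0.32 on the log2 scale (SE 0.12), again with no overlap. On the other side, GGH, which removes the glutamate tail from folates, had 54.8, 111 and 135 CPM under gas, against 135, 144 and 141 CPM under dCAMP, or 0.48 as log2 fold change (SE 0.31). Gas 1 lay far below the other libraries, and gas 3 just below the lowest dCAMP library. MTHFD2L, a relative of MTHFD2, had 2.51 to 5.01 CPM under gas, against 4.46 to 5.40 CPM under dCAMP, and MTFMT, the mitochondrial enzyme that formylates the initiator tRNA, stood at a log2 fold change of 0.29 (SE 0.16). The median of the list was 0.12, and ran from −0.02 without gas 3 to 0.13 without gas 2 when 1 library was left out.

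In the methionine cycle, 6 of 8 genes were tested, and the median log2 fold change was 0.02, or −0.06 without gas 2 and −0.12 with the length correction. MAT2B, a regulatory subunit of methionine adenosyltransferase, had 24.7, 33.6 and 50.8 CPM under gas, against 57.9, 62.0 and 58.4 CPM under dCAMP (log2 fold change 0.71, SE 0.25), with no overlap. The log2 fold changes of its partner MAT2A and of MTRR, AHCY and MAT1A were 0.14, 0.03, −0.11 and −0.01. In purine synthesis, which takes up formyl groups made by MTHFD1, all 6 genes were tested with a median of −0.06, or −0.13 without gas 1 and also −0.13 with the length correction. PFAS had 197, 169 and 157 CPM under gas, against 127, 130 and 127 CPM under dCAMP (log2 fold change −0.45, SE 0.10), and ADSL stood at a log2 fold change of −0.27 (SE 0.11). PPAT, the first enzyme of the route, had 29.8, 64.8 and 129 CPM under gas, against 122 to 135 CPM under dCAMP, so gas 3 lay within the dCAMP range and gas 1 far below it. PAICS stood at a log2 fold change of 0.28 (SE 0.29), and ATIC of −0.07 (SE 0.12).

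Of the enzymes of aspartate, glutamine, glutamate and proline, 9 of 10 were tested, 7 with a lower fitted level and a median log2 fold change of −0.25. PYCR1, PYCR3 and ALDH18A1, enzymes of proline synthesis, were lower in every dCAMP library than in every gas library. PYCR1 had 34.9, 30.6 and 25.6 CPM under gas, against 21.4, 21.6 and 19.8 CPM under dCAMP (log2 fold change −0.53, SE 0.14), PYCR3 stood at a log2 fold change of −0.57 (SE 0.14) and ALDH18A1 of −0.25 (SE 0.09). GLUL, the glutamine synthetase, had a log2 fold change of 0.07 (SE 0.10), and its groups overlapped.

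**Figure D5:**
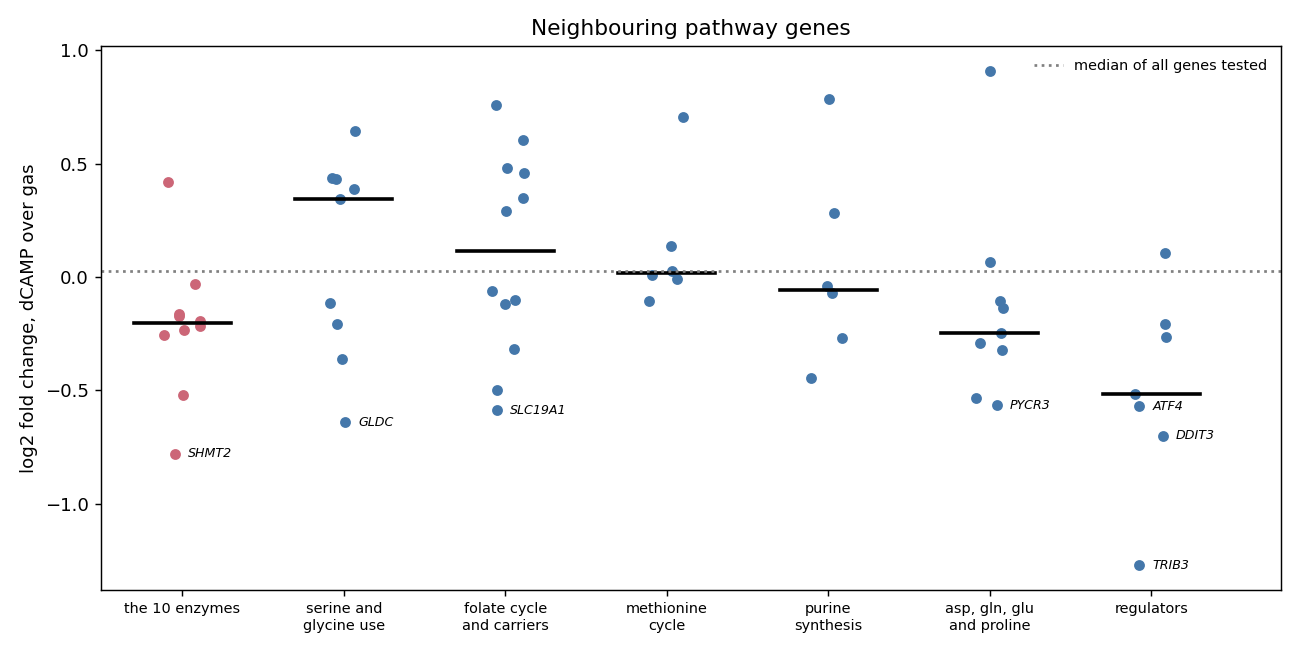
Log2 fold change of dCAMP over gas (y axis) of the 10 enzyme genes (red) and of the tested genes of 6 neighbouring lists (blue), with the median of each as a black bar and the median of all genes tested as a dotted line; genes below −0.55 are named. The medians run from −0.52 for the regulators to 0.35 for the genes that use serine and glycine.

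The 7 regulators had a median of −0.52, or −0.34 without gas 1. Among them, ATF4 had 655, 595 and 543 CPM under gas, against 425, 339 and 444 CPM under dCAMP, or −0.57 as log2 fold change (SE 0.13), and the groups did not overlap. The log2 fold changes of its targets TRIB3 and DDIT3 were −1.27 (SE 0.26) and −0.70 (SE 0.23), and EIF2AK4, the kinase that senses uncharged tRNA, had 0.11 (SE 0.09). Among the dCAMP libraries, all 7 regulators were lowest in dCAMP 2, as were PSAT1, PSPH, ASNS, MTHFD2 and ALDH1L2. PHGDH and SHMT1 were also lowest there, while SHMT2, MTHFD1 and MTHFD1L were not. Among the gas libraries, ATF4 was highest in gas 1, where PSAT1, PSPH, ASNS, MTHFD2 and ALDH1L2 were lowest and SHMT2 and PHGDH highest. The share of all genes with each of these library orders was not computed, so nothing is read from them.

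The mean of the centred log2 CPM of the 10 genes was compared with the 9046 other protein-coding genes of at least 10 CPM over the 6 libraries. The profiles most like it were those of RPLP1 (Pearson's r = 0.99), C8H14orf93 (0.97), TAF3 (0.97), STOM (0.96) and CDKN2AIPNL (0.94). With 6 points and this many genes, coefficients of this size are a description only. The mean profile joins genes of both patterns described above and need not resemble any one of them. It was 0.02 in gas 1, 0.13 in gas 2 and 0.15 in gas 3, while SHMT2 and PHGDH were highest in gas 1. RPLP1, an acidic protein of the large ribosomal subunit, had 418 to 434 CPM under gas, against 392 to 409 CPM under dCAMP. The log2 fold changes of these 5 genes were −0.26 to −0.10.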

How the data were processed

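Per the submitters' notes and the paper, the authors trimmed reads with Trimmomatic 0.38 after FastQC 0.11.7, removed PCR duplicates, mapped to CanFam3.1 with HISAT2 2.1.0 and summarized known transcripts with StringTie 2.1.3b. Raw read counts (whole numbers) were deposited for genes and transcripts. FPKM, deposited beside them, had been scaled by the authors to transcript length and to the number of mapped reads. The annotation release and the handling of strand, overlaps and multiply mapped reads are not given in the sources used here, and TPM columns were not used. Column names gave each library and its replicate number.

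Counts were analysed in R 4.3.3 with edgeR 4.0.16: filterByExpr (14708 genes kept), TMM, then quasi-likelihood tests between dCAMP and gas (prior count 2, Benjamini-Hochberg adjustment). CPM used the TMM-scaled library size, and SE the fold change and F statistic. DESeq2 1.42.0 and limma 3.58.1 gave alternatives: in all, 12 settings and 6 fits without 1 library, plus 2 added after seeing the data. The length correction was a lowess curve per library (span 0.3). The steps were tested on simulated data. The 10 genes, the lists and the tests were chosen with earlier results of these data known. Named were the 10 genes, up to 3 genes of smallest p per list and direction, ATF4, and the 5 genes of most similar profile; some genes that this rule names are not reported here. Of the 57 listed genes, 56 were found, ALDH1L1, GART and PAICS through their gene IDs. No sequence was used, so the promoter motif search was not run.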

Additional observations from a re-analysis of the deposited data

How the results depend on the processing

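All values compare dCAMP with gas, and for every value below the cause was not tested. Genes with an adjusted p under 0.05 numbered 0 in edgeR, against 3040 with an unadjusted p under 0.05. They numbered 301 with DESeq2, 161 with DESeq2 where a count of at least 1 was required in each library, 8944 with voom and sample quality weights, 3 with limma on log2(FPKM + 0.1), and 0 to 4953 without 1 library, where gas 3 gave 4953 and gas 1 gave 1. Those at 2-fold or more with unadjusted p under 0.05 numbered 161, and 279 with no filter, 369 and 327 with the 2 DESeq2 settings, 1010 with voom, 373 on log2(FPKM + 0.1), and 135 to 1523 without 1 library. Of the 10 enzyme genes, the adjusted p called 0, but 2 with either DESeq2 setting, 8 with voom, and 0 to 4 without 1 library. The unadjusted p called 3, where it called 20.7% of all genes, but 9 with voom, 6 with the length correction, and 2 to 6 without 1 library, with 6 without gas 1 or gas 3. The share of all genes by the unadjusted p was not computed for these other fits, so nothing is read from their counts. With voom, 60.8% of all genes passed even the adjusted p. Their median log2 fold change of −0.20 was −0.29 with upper-quartile factors, where the median of all genes was −0.06, and −0.28 to −0.20 without 1 library. Of the neighbouring genes, 0 were called, but 4 and 2 with the DESeq2 settings, 33 with voom, and 0 to 24 without 1 library. Of all genes, voom called 60.8%, and the fit without gas 3, which gave the 24, called 33.1%. MTHFD2, at −0.03, was 0.024 with voom and −0.14 to 0.040 without 1 library. The other 9 genes kept their direction in all 12 settings and 6 fits.

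The replicate numbers are shared by both groups, so the replicate number was also fitted as a replicate block. Same-numbered libraries deviated together with correlations of 0.13, 0.02 and 0.05, and not every library correlated best with its own. Deviations from means of 3 libraries cannot decide whether a shared number marks a shared experiment. The block gave 435 genes at 2-fold or more with unadjusted p under 0.05, and 471 together with the length correction. It called 0 genes by the adjusted p, 3 of the 10 enzyme genes by the unadjusted p, and left their median at −0.19. The share of all genes by the unadjusted p was not computed for this fit.

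Each of the 10 enzyme genes had at least 554 counts in every library, and each group had 3 libraries. The gas libraries spread more over all genes tested, but ALDH1L2 had a coefficient of variation of 8.72% under gas and 11.5% under dCAMP. The part of depth and of this spread in the precision was not tested.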
